A study of Schizosaccharomyces pombe with 56 samples.

Results

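The flocculin genes of fission yeast (Schizosaccharomyces pombe) were examined for H3K9me2, histone H3 carrying 2 methyl groups on lysine 9 and a mark of silent chromatin, before and after nitrogen was removed. The 8 genes gsf2, pfl2, pfl3, pfl4, pfl5, pfl7, pfl8 and pfl9 were taken by name from the 5113 annotated protein-coding genes, and each was given the regions of the authors' deposited table that overlapped it by at least 1 bp. That gave 7 regions out of 2192, 1 for each gene except pfl8, which had none. Of all protein-coding genes, 54.8% were overlapped by a region. The choice used the presence of a region in this comparison, so the levels and changes below describe these genes and are not a test of the family.

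The series holds 56 ChIP-seq libraries, 24 of them for H3K9me2. Wild-type cells of strain 975 h+ were grown in minimal medium with added adenine, histidine, leucine, lysine and uracil at 32C (0 h, 6 H3K9me2 libraries) and then kept in the same medium without nitrogen for 24 h (6 libraries); nothing in the labels says that the libraries came from separate cultures. The comparison asks where the mark lies as cells leave growth for quiescence. The table sets 24 h against 0 h as 1 mean of normalised reads per group and region, and the digits in its sheet name list 5 of the 6 replicate numbers. Libraries at 1 h, of the clr4D and ago1D strains and for H3K9me3 were not analysed here.

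Flocculins are glycoproteins of the cell surface that let yeast cells adhere to one another and to other surfaces. They typically carry long stretches rich in serine and threonine, encoded by tandem repeats, and gsf2, also called pfl1, encodes the protein through which flocculating fission yeast cells bind galactose-containing sugars. In fission yeast, H3K9me2 is laid down by the methyltransferase Clr4 and covers domains at centromeres, at chromosome ends and at the mating-type genes, while most genes on the chromosome arms carry little of it in growing cells.

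The coding repeats are shown first because 4 of the 7 regions lie over them. All sequences are from the RefSeq genome ASM294v3, read 5′ to 3′ on the coding strand, and capitals in later copies mark bases that differ from copy 1. In gsf2 a unit of 234 bases filled 1501 bases of coding sequence (minus strand, copy 1 at chrIII:963124-963357 and copy 2 at chrIII:962890-963123), and copies 2, 3 and 6 were identical.
gsf2 copy 1: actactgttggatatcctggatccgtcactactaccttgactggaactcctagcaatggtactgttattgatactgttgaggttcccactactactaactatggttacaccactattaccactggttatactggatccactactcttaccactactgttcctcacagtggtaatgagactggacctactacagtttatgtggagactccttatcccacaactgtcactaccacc
gsf2 copy 2: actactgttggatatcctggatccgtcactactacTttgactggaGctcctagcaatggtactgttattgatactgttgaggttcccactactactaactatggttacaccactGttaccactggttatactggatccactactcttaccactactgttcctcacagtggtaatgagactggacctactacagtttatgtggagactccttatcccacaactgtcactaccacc

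The repeats of pfl5 and pfl3 had the same unit length, 105 bases. They filled 2640 bases of pfl5 (plus strand, copy 1 at chrII:4422033-4422137, copy 2 at chrII:4422138-4422242 and copy 4 at chrII:4422348-4422452) and 975 bases of pfl3 (minus strand, copy 1 at chrII:671143-671247 and copy 2 at chrII:671038-671142). Copy 2 of pfl5 differed from copy 1 at 12 bases and copy 2 of pfl3 at 4. The pfl5 region began at chrII:4422136, so copy 1 of pfl5 lay almost wholly before it, and copies 2 and 4 lay under it.
pfl5 copy 1: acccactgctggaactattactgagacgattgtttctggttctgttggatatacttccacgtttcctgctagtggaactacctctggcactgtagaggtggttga
pfl5 copy 2: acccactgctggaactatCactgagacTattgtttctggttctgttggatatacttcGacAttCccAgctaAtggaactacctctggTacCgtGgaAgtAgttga
pfl5 copy 4: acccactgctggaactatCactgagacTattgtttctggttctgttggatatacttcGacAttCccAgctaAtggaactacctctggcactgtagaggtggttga
pfl3 copy 1: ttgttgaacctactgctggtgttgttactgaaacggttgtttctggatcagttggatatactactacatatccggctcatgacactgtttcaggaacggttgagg
pfl3 copy 2: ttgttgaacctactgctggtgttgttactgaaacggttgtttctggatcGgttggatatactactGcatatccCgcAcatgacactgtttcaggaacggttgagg

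In pfl2 the highest-scoring repeat (the score is defined below) had a unit of 342 bases and 2 full copies over 730 bases of coding sequence (minus strand). The first 120 bases of each copy are given, at chrI:3989251-3989370 and chrI:3988909-3989028, with 5 differing bases among them and 6 in the full unit.
pfl2 copy 1: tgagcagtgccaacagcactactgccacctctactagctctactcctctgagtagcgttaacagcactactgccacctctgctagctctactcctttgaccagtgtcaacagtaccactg
pfl2 copy 2: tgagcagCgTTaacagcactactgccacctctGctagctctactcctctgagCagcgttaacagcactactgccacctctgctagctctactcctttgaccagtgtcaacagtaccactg

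The family did not share 1 pattern of H3K9me2. Before starvation pfl2 had the table's lowest mean, and it was the single member under a region called higher at 24 h. The regions over gsf2, pfl5, pfl3 and pfl4 held H3K9me2 signal at 0 h already and had higher means at 24 h without passing the authors' FDR of 0.05. pfl7 and pfl9 differed from both and from each other: pfl7 had signal in 1 library at 24 h, and pfl9 lay within a wide region that reached a chromosome end. That region had signal at both times, but no value could be given to pfl9 itself. pfl8 lay under no region. With 1 of 8 members under an increased region, the count compares with 10.5% of all protein-coding genes. By regions it was 1 of 7 against 20.7% of all regions, or 1 of the 6 with a p below 1 against 32.7% of such regions, and 0 members lay under a decreased region against 0.456% of regions. Since the members were chosen from this comparison, nothing is read from these shares.

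Whole reads per library could be recovered from the group means, because each mean is the table's lowest value plus whole multiples of what 1 read is worth in each library. Signal above the minimum came from 2 libraries at 0 h, called a and b here, and from 3 at 24 h, called A, B and C, of the 5 libraries taken for each group. In every region so resolved (2177 of 2192 at 0 h, 2175 at 24 h) the remaining 3 libraries of the 0 h group and 2 of the 24 h group did not leave their minimum. Which replicate number each letter stands for is not known, and a and A are not paired. Library A held 73.8% of the recovered signal at 24 h, B 20.3% and C 5.84%. The values per library below are these recovered values in normalised reads.

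**Figure D1:**
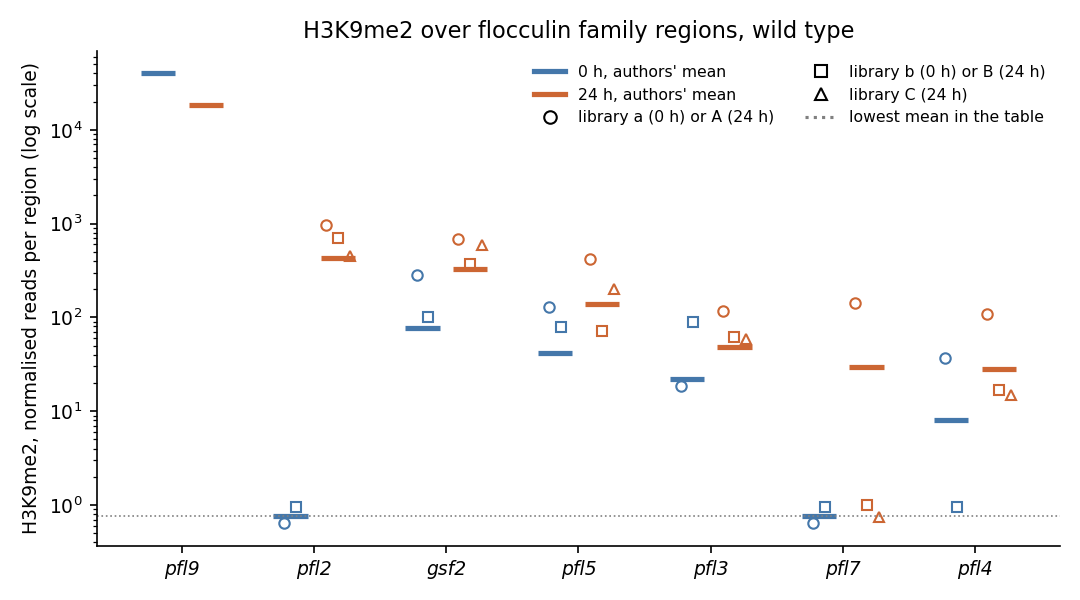
H3K9me2 level of the 7 flocculin family regions in wild type at 0 h (blue) and 24 h (orange), in normalised reads per region on a log axis; bars are the authors' group means, open symbols the recovered libraries with signal, and the dotted line the lowest mean of the table. For pfl2 all 3 symbols at 24 h lie far above the 0 h bar, for pfl7 only library A does, and pfl9, whose reads were not recovered, stands at 40053 and 18495.

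pfl2, a serine- and threonine-rich flocculin gene, had the highest mean at 24 h of all 453 increased regions. At 24 h the recovered libraries stood at 961 normalised reads in A, 710 in B and 451 in C, with the other 2 at their minimum. At 0 h all 5 libraries were at their minimum, so the 3 libraries with signal lay above every 0 h library and the 2 others did not. In the authors' deposited table the group means were 0.77 at 0 h and 425 at 24 h, a log2 change of 9.11 with an FDR of 6.49e-06. Against a floor of 3 counts per library (2.31 normalised reads) the 24 h mean was at least 184-fold higher. No single library carried it: its log2 change was 8.56 without A, 8.84 without B and 9.09 without C.

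The pfl2 region ranked higher by width than by level per kb, though it was high in both. It spanned 8413 bp at chromosome I 3982702 to 3991114 (build ASM294v2), the second widest of the increased regions. Per kb of region it had 50.5 normalised reads at 24 h and ranked 40 of the 453 increased regions and 65 of all 2192 regions. It covered 93.2% of the annotated gene (3987033 to 3991412, minus strand) and all of its coding sequence, beginning 765 bp before the start codon and 298 bp inside the annotated transcript. At the other side it ran 4537 bp past the stop codon, over the uncharacterised genes SPOM_SPAPB18E9.05C and SPOM_SPAPB18E9.04C, both on the strand of pfl2. The second of these encodes a protein with 56.8% serine and threonine and tandem repeats of its own, with a unit of 162 bases. The long non-coding RNA SPOM_SPNCRNA.3779, on the opposite strand, overlapped 3077 bp of the pfl2 gene. The group means cannot tell which of these genes held the reads.

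The 5 other regions nearest to pfl2 in both group means (Euclidean distance on the log2 scale) held no flocculin gene. In the authors' deposited table they were a cluster of 4 tRNA genes on chromosome II at 347 normalised reads at 24 h and the regions over tef3, pma1, tif302 with pan1, and pyk1, which ran from 220 to 156. All 5 stood at the lowest value at 0 h. Nearness here is over 2 group means only.

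gsf2 carried the highest H3K9me2 of the family on a chromosome arm at 0 h. At 0 h library a stood at 280 normalised reads and library b at 101, with the other 3 at their minimum. At 24 h the libraries stood at 681 in A, 375 in B and 592 in C, and the other 2 at their minimum. Each of the 3 libraries with signal at 24 h lay above both at 0 h, but the groups overlapped through the libraries at their minimum. The authors' deposited table gave means of 76.6 and 330, a log2 change of 2.11 with an FDR of 0.434. The 0 h library a moved this most, and without it the log2 change was 3.68; without each of the other libraries it ran from 1.66 to 2.23.

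The gsf2 region followed the coding sequence closely. It covered 4488 bp at chromosome III 959380 to 963867 (gene 959199 to 966012, minus strand), starting 105 bp after the start codon and ending 99 bp before the stop codon, so that 95.7% of the coding sequence was covered. The annotated leader upstream of the start codon lay outside it, as the map of regions on the genes shows. Its level ranked 18 of 2192 regions at 0 h and 15 at 24 h in the authors' deposited table. In library C it was the highest of the 2175 regions with recovered reads at 24 h, with pfl2 next.

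**Figure D2:**
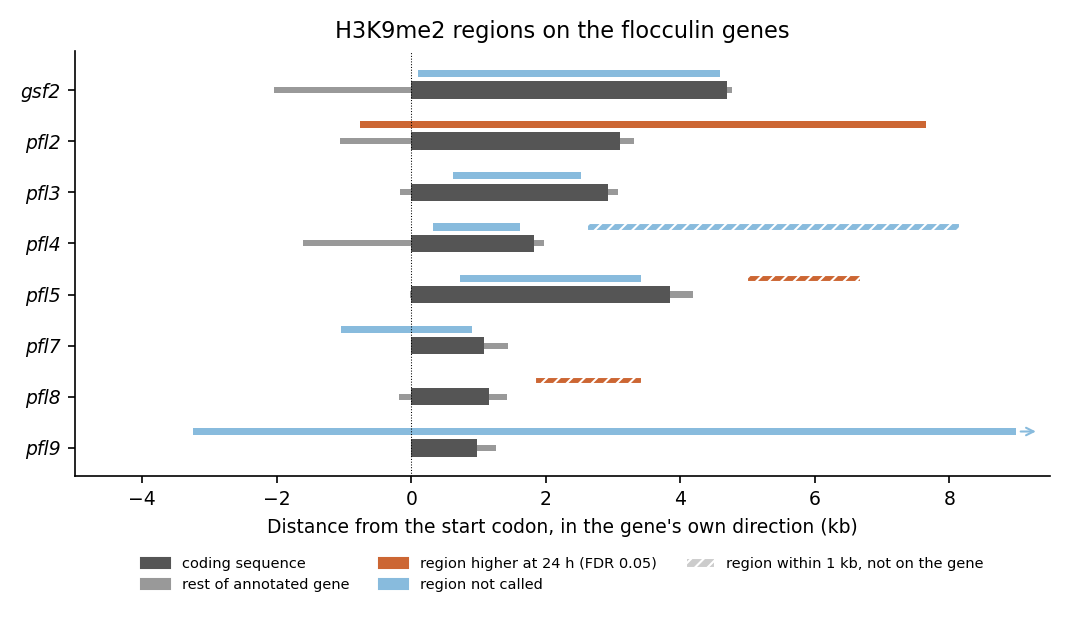
Map of the 8 flocculin genes to scale, aligned at the start codon and read in each gene's own direction (kb), with the coding sequence in dark grey, the rest of the annotated gene in light grey and the regions above (orange where higher at 24 h at the authors' FDR of 0.05, light blue where not called, hatched where the region lies within 1 kb of the gene and not on it). The regions of gsf2, pfl3, pfl4 and pfl5 lie inside the coding sequence, that of pfl2 runs past both of its ends, and the arrow marks that the pfl9 region continues to the chromosome end.

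pfl5, the repeat-rich flocculin gene of 1283 codons on the right arm of chromosome II, was the next in level. The recovered values were 129 normalised reads in a and 79.1 in b at 0 h, and 420 in A, 72.0 in B and 202 in C at 24 h. Library B at 24 h lay below both 0 h libraries with signal, so the groups overlapped among the libraries with signal too. The authors' deposited table gave 42.0 and 139 as means, a log2 change of 1.73 and an FDR of 0.526. Without library A the log2 change was 0.71, and without library a it was 2.77. The region, chromosome II 4422136 to 4424823 (gene 4421395 to 4425608, plus strand), covered 2688 bp, all inside the coding sequence, from 723 bp after the start codon to 441 bp before the stop codon.

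pfl3, whose protein is annotated as a DIPSY family glycoprotein, had a level between pfl5 and pfl4. At 0 h libraries a and b stood at 18.6 and 90.4 normalised reads, and at 24 h A, B and C stood at 118, 62.0 and 58.8. Library b at 0 h exceeded B and C at 24 h. The means in the authors' deposited table were 22.3 and 48.1, a log2 change of 1.11 with an FDR of 0.732. Without library b the log2 change was 3.20, and without library A it was 0.46. Its region of 1908 bp (chromosome II 670132 to 672039, gene 669581 to 672835, minus strand) lay inside the coding sequence and covered 65.3% of it.

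pfl4, annotated as a flocculin, rested mostly on 1 library at each time. Library a stood at 37.2 normalised reads at 0 h and b at its minimum, and at 24 h A stood at 109, B at 17.0 and C at 14.9. Library a at 0 h lay above B and C. The authors' deposited table gave 8.07 and 28.5, a log2 change of 1.82 with an FDR of 0.443, which was 0.04 without library A and 5.15 without library a. The region, chromosome III 1493155 to 1494449 (gene 1492788 to 1496382, minus strand), was the narrowest of the family at 1295 bp and covered 70.8% of the coding sequence.

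pfl7 and pfl9 both encode DIPSY family glycoproteins and have the shortest proteins of the family, 358 and 326 residues. pfl7 stood at its minimum in every library at 0 h. At 24 h library A stood at 144 normalised reads and B and C at their minimum, so 1 library carried the whole signal and without it the log2 change was -0.01. The authors' deposited table listed means of 0.77 and 29.4, a log2 change of 5.25 and a p of 1, and the region took no part in the FDR adjustment. It lay at chromosome II 118424 to 120366 (gene 117892 to 119328, minus strand), began 1038 bp upstream of the annotated start and covered 84.0% of the coding sequence.

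pfl9 lies 50.2 kb from the right end of chromosome I, within a region of 54685 bp that reaches the chromosome end and also covers 37 other annotated genes, 16 protein-coding genes and 21 long non-coding RNAs. In the authors' deposited table this region had means of 40053 normalised reads at 0 h and 18495 at 24 h, a log2 change of -1.11 with an FDR of 0.176. The level belongs to the whole domain, of which pfl9 (5527692 to 5528959, plus strand) takes up 2.32%, so no value of its own could be given to the gene. Per kb of region the domain held 732 and 338 normalised reads, the highest of the table at both times. Its means were above the range in which reads per library were recovered.

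pfl8, also known as fta5, lay under no region (chromosome I 99833 to 101431, plus strand). The nearest one began 414 bp past its annotated end, at 101846 to 103446 over the pyruvate decarboxylase gene pdc101. In the authors' deposited table this neighbour rose from the lowest value to 118 normalised reads, at least 50.9-fold, with an FDR of 0.000159. It is the case just outside the 1 bp rule. A region 792 bp downstream of pfl5, over the amine oxidase gene cao2, was called as well, at least 13.0-fold higher in the authors' deposited table (FDR = 0.00445). That bound rested on library A at 132 normalised reads, with 16 in B and C at its minimum, and without A it was 1.96-fold. The region 639 bp downstream of pfl4, over ubp5 and ccq1, was listed with a p of 1 in the authors' deposited table.

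Ordered by mean level at 24 h in the authors' deposited table, the domain over pfl9 came first, followed by pfl2, gsf2, pfl5, pfl3, pfl7 and pfl4. Among the libraries with signal, the ranges overlapped between the neighbours pfl2 and gsf2, gsf2 and pfl5, and pfl5 and pfl3. The same libraries cover every region, and within each of A, B and C gsf2 stood above pfl5 and pfl5 above pfl3. pfl2 stood above gsf2 in A and B and below it in C, at 451 against 592 normalised reads. pfl7, with 1 library, stood above the range of pfl3 in that library and below it in the others. Per kb of region the order was pfl9, gsf2, pfl5, pfl2, pfl3, pfl4 and pfl7, with 73.5 normalised reads for gsf2, 51.8 for pfl5, 50.5 for pfl2, 25.2 for pfl3, 22.0 for pfl4 and 15.1 for pfl7. The pfl2 region thus held more reads than that of gsf2 in all and fewer per kb, and its level per kb was close to that of pfl5. No test was made of this order, since each mean has no error in the table.

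At 0 h 5 of the 7 family regions had a mean above the table's lowest, against 47.4% of all regions, where 52.6% had the lowest mean. Among the 1038 regions above it at 0 h, 53 were called higher, or 5.11%, and 0 of the 5 family regions. The median log2 change of the 7 family regions was 1.82, against 2.43 over all regions and 1.72 over the 1385 with a p below 1. After scaling that gave those regions equal medians (log2 shift -1.72), pfl2, pfl7, gsf2, pfl4 and pfl5 were still higher at 24 h, the last 2 by 0.10 and 0.01, while pfl3 turned to -0.61.

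**Figure D3:**
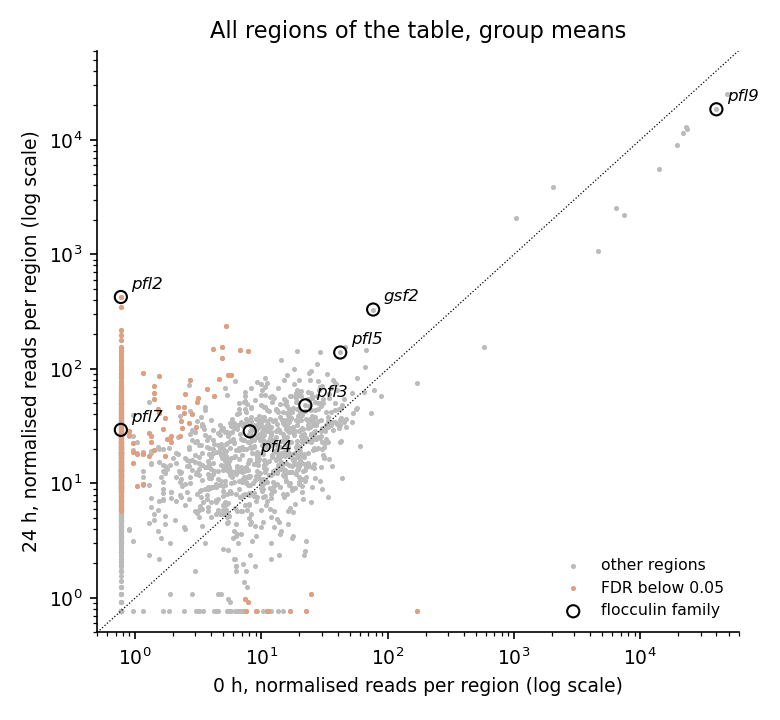
Group mean at 24 h against group mean at 0 h for the 2192 regions of the authors' deposited table, in normalised reads on log axes, with regions at an FDR below 0.05 in light orange, the family circled and the dotted line at equal levels. pfl2 stands at the top of the column of regions at the 0 h minimum, gsf2, pfl5, pfl3 and pfl4 lie above the line among the regions with signal at both times, and the wide region that holds pfl9 lies below it.

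Of the 6 family regions with recovered reads, 5 had signal in all 3 libraries A, B and C at 24 h, and pfl7 had it in A only. Among all recovered regions 13.6% had signal in all 3 and 15.7% had signal in C. Library C gave 35.9% of the signal above the minimum at gsf2, 29.1% at pfl5, 24.5% at pfl3, 21.2% at pfl2 and 10.2% at pfl4. Over all regions with recovered reads it gave 5.84%. That 5.84% takes in the many regions without signal in C and leaves out the strongest regions, such as that of pfl9, whose reads were not recovered. Among the other adhesin and wall genes listed below, 6 had signal in all 3 libraries. At these 6, C gave from 7.43% (gas5) to 26.2% (psu1). The shares of pfl3, pfl2 and pfl4 lay within that range, and those of gsf2 and pfl5 lay above it. Outside both lists, the stronger region over SPOM_SPBPJ4664.02 stood at 217 normalised reads in C with a 24 h mean of 65.8. A large part from C is thus not particular to the family. pfl5 ranked 7 of 2175 in library C, pfl3 67 and pfl4 192. These are counts over regions that share the same libraries, and no test was made of them. Signal in C is part of the 24 h mean, so nothing is read from these shares.

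**Figure D4:**
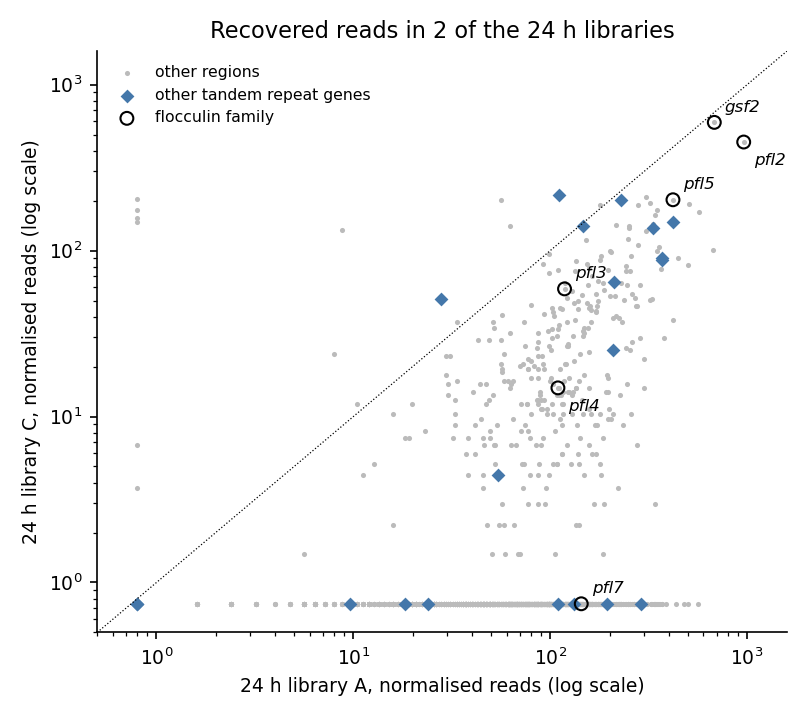
Recovered level in library C against library A at 24 h for each region with recovered reads, in normalised reads on log axes, with the family circled, the other genes with a tandem repeat score of 200 or more as blue diamonds and equal levels as a dotted line. gsf2 and pfl2 are the 2 highest regions in library C, at 592 and 451, and pfl7 lies in the row of regions at the minimum of C.

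Sequence features that the choice of members did not use were computed from the reference. Serine and threonine made up from 26.7% of the protein at pfl9 to 56.3% at pfl2, against a median of 13.9% over 5113 proteins, and pfl2 ranked 3, gsf2 11 and pfl5 19. Outside the highest-scoring repeat the share was 54.3% in pfl2, 43.7% in gsf2 and 26.7% in pfl7, where the whole protein had 32.1%. Tandem repeats were scored along each coding sequence as 1 for each matching base at a fixed distance and -2 for each mismatch, over distances of 6 to 400 bases. pfl5 ranked 3 of 5113 by this score, gsf2 4, pfl3 6 and pfl2 10, while pfl4 ranked 44 and pfl7 68, and pfl8 and pfl9 had scores of 10 and 9. A high serine and threonine content is a known trait of flocculins, whose sugar chains are attached to these residues.

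**Figure D5:**
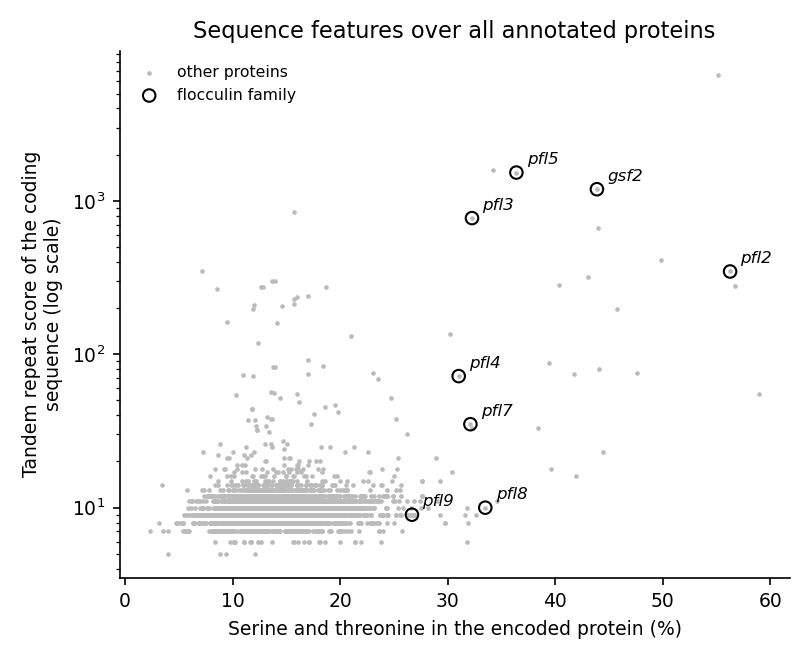
Tandem repeat score of the coding sequence (log axis) against the share of serine and threonine in the encoded protein for 5113 annotated proteins, with the 8 flocculins circled. gsf2, pfl2, pfl3 and pfl5 lie among the highest repeat scores, and all 8 lie above the median share of 13.9%.

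Across the table, 25 protein-coding genes had a repeat score of 200 or more, 4 of them in the family. This threshold was set after the values had been seen. All 25 lay under a region, against 54.8% of all protein-coding genes, and 16 of them lay under a region with signal in library C, against 7.41%. The highest scores were those of SPOM_SPBPJ4664.02 and SPOM_SPAPB2C8.01, both annotated as glycoproteins. In the authors' deposited table their strongest regions had means of 77.7 and 65.8 normalised reads and of 66.2 and 104 normalised reads at 0 h and 24 h. Their levels in library C, 217 and 203 normalised reads, stood beside the 202 of pfl5. Of the 25 genes, 7 lay under an increased region, or 28%, against 10.5% of all protein-coding genes. pfl2 and SPOM_SPAPB18E9.04C lie under the same region and both count among the 7 and the 16. Without that gene and the family, which was chosen from this comparison, 20 genes were left. All 20 lay under a region, 5 under an increased one and 11 under one with signal in library C. Gene length was not matched, although a longer gene is more easily overlapped by 1 bp. No test was made, and nothing is read from these shares.

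Repeats also bear on where reads can be placed. Of all windows of 50 bases within the family's regions, 24.7% occurred once in the genome for pfl5, 39.3% for gsf2, 42.0% for pfl3 64.3% for pfl9 and 81.8% for pfl2, against 100% for pfl4 and pfl7 and 95.9% over the 3 chromosomes. The GC content of these regions ran from 32.4% at pfl9 to 46.5% at pfl5, against a median of 40.2% over the regions of the table. The sources used here do not say how reads with several possible positions were treated. The part of repeated sequence and base composition in these levels was not tested.

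The members resembled one another to different degrees. By alignment score the closest pair was pfl3 and pfl5, with 62.9% identity over 816 aligned residues, followed among members by gsf2 and pfl5 (39.4% over 1042), pfl4 and pfl8 (49.5% over 364) and pfl4 and pfl5 (50.6% over 445). pfl7 and pfl9 shared 57.1% over 296 residues that ran from the first residue of each protein to the last. The gene pfl6, which bears the family name and is not among the 8, was closest to pfl4, at 58.4% over 380 residues. It lay under a region with signal in library A only, at 275 normalised reads, and 4.16% of the windows in its gene were unique. Proteins ran from 326 residues at pfl9 to 1563 at gsf2.

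pfl9, pfl8, pfl5 and pfl7 lie 50.2, 99.8, 114 and 118 kb from a chromosome end, and the other 4 lie from 670 kb (pfl3) to 1588 kb (pfl2) away from one. A long non-coding RNA annotated on the opposite strand overlapped pfl2, pfl3, pfl4 and pfl7 under their regions, whereas no other annotated gene lay under the regions of gsf2 and pfl5. ChIP reads carry no strand, so such pairs cannot be told apart.

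The 250 bases before each annotated gene start were searched on both strands for GTGGGAA and ATGGGAA, the sites of the CSL factors cbf11 and cbf12. These forms were found in 0 of the 8 members and in 1.25% and 2.93% of 5112 promoters. No match says only that these letters are not in this window.

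Genes that regulate flocculation were counted as well. Of 14 listed genes 13 were matched by name, and 11 lay under a region, beside 54.8% of all protein-coding genes. Under a decreased region were 0, while 2 lay under one called higher, or 15.4% of those matched, beside 10.5% of all protein-coding genes. These were ssn6, encoding a subunit of the Tup-type corepressor, at least 38.3-fold higher with a 24 h mean of 88.4 normalised reads in the authors' deposited table (FDR = 0.000342), and mbx2, encoding the MADS-box activator of flocculation, at least 4.59-fold higher with 10.6 (FDR = 0.0166). Without library A the bound for ssn6 was 19.7-fold, and the bound for mbx2 was 2.82-fold without library B. In the authors' deposited table the log2 change was 1.04 for the corepressor gene tup11 (FDR = 0.743), 0.60 for tup12 (FDR = 0.917) and -0.15 for adn2 (FDR = 0.988). The regions over cbf11, cbf12 and the kinase gene lkh1 were listed there with a p of 1 and had signal in library A alone. yox1 lay under no region.

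Other adhesins and wall genes were counted in the same way. Of 24 listed genes 19 lay under a region and 7 under one called higher, or 29.2%, beside 54.8% and 10.5% of all protein-coding genes, with 0 under a decreased region. They were psu1, gas1, gas2, gas5, ecm33, exg1 and map4, and psu1 and the beta-glucanosyltransferase gene gas1 rose at least 62.4-fold and 22.5-fold in the authors' deposited table. map4, which encodes an adhesin of mating cells, rose at least 14.5-fold (FDR = 0.00364) in the authors' deposited table, while mam3, encoding the adhesin of the opposite mating type, was listed there with a p of 1. Without library A the bound was 3.90-fold for map4, 14.1-fold for gas1 and 47.7-fold for psu1. Of the 19 with recovered reads, 6 had signal in library C, against 5 of 6 in the flocculin family and 15.7% of all recovered regions. Signal in C is part of the 24 h mean. The median of that mean was 39.3 normalised reads over these 19, 139 over the flocculin family and 15.1 over all regions. Nothing is read from these counts. The alpha-glucan synthase gene ags1, which had signal at 0 h, had means of 19.1 and 142 normalised reads in the same table, a log2 change of 2.90 with an FDR of 0.208. The listed name crf1 matched ifh1, which is not a wall gene, and stays in the count. Both lists were chosen with results of these data known, so their shares describe the table.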

How the data were processed

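Chromatin from cross-linked cells was immunoprecipitated with an antibody to H3K9me2 and sequenced, per the labels' protocols. Bowtie2 2.2.7, MACS2 2.1, DiffBind 1.16.3, DESeq2 and the build ASM294v2 are named in the submitters' processing notes, with no role or order. The sources used here do not state the scaling, any input subtraction or the filters. The labels list 4 inputs for the 6 wild-type H3K9me2 libraries at 0 h and 4 for the 6 at 24 h, so not every library has one. Why some libraries stayed at their minimum was not tested. The authors deposited log2 mean normalised reads per region and group, together with a log2 fold of 0 h over 24 h, per the file headers. Its sign was turned here, so positive is higher at 24 h. Each region also carries the p-value and FDR that the authors deposited, and 807 of 2192 regions have a p of 1. The planned tests on values per library were replaced by the authors' FDR, at 0.05, since the table holds group means. The smaller deposited table repeats the 453 increased regions. Table starts were raised by 1 to count from 1.

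Library depth is not given. Reads per library were recovered by searching each group mean for whole multiples of the worth of 1 read, within 1e-10 and up to 600 normalised reads, assuming 5 libraries per group. Every resolved region had a single solution, and shifted control values resolved in 0 of 933 and 0 of 1981 cases. The 300 simulated means per group were all recovered. They were made with the same worth of 1 read that the search used, so they check the search only. They cannot show whether further libraries had signal, and the search allowed at most 3 with signal. Folds against a group at its lowest value are bounds from 3 counts per library and cover counting error only. Library numbers are unknown, and replicates may be technical, so p-values measure the spread between these libraries.

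Genes come from the RefSeq annotation of ASM294v3, whose 3 chromosome lengths equal the ends of the last regions in the deposited table. Coding sequences were translated and aligned locally (BLOSUM62, Biopython 1.88) and searched for tandem repeats; windows of 50 bases were counted on both strands. Python 3.11.15, numpy 2.4.6, pandas 2.3.3 and numba 0.67.0 were used, and figures were drawn with matplotlib 3.10.9. All 8 members, the genes under their regions, and 2 fixed lists were named. One listed regulator and a motif search are not reported here. The members and lists were chosen with earlier results of these data known. Alternatives were wider or stricter overlap, other FDR thresholds, scalings and floors, levels per kb, the part of the protein counted, and leaving out each recovered library. Leaving out libraries for the fold bounds of listed and neighbouring regions was added after the data were seen.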

Additional observations from a re-analysis of the deposited data

Results flagged for a closer look

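In 4 of the 10 pairs of a family region and a time with signal, 1 of the 5 libraries stood apart by Dixon's criterion. Chance passes that criterion in about 5% of groups of normal data, a rate that does not apply here, because 2 to 4 of the 5 values lie at their minimum and a region with signal in 1 library must give a ratio near 1. The gap of the highest library to the next, as a share of the group's range, was 0.801 for pfl3 at 0 h (library b). For pfl4 it was 0.995 at 0 h (library a) and 0.850 at 24 h (library A). For pfl7 at 24 h (library A) it was 0.998, with all other libraries at their minimum. The libraries at their minimum count among the 5. gsf2 and pfl5 had no such library at either time, nor pfl2 at 24 h.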

How the results depend on the processing

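pfl2 remained the 1 member under an increased region at an FDR of 0.01 and 0.1 and with 50% of the gene body covered, beside 7.06%, 11.1% and 7.10% of all protein-coding genes. With gene bodies extended by 500 bp the count was 2 (pfl2 and pfl8, beside 13.4% of all protein-coding genes), and by 1000 bp it was 3 (with pfl5, beside 18.6%), through the regions over pdc101 and cao2. The median log2 change of 1.82 was 2.36 with equal totals (a shift of 0.54) and 0.10 with equal medians of tested regions. Over the 6 regions with recovered reads it was 1.96, and 0.58 (without library A) to 4.42 (without library a) with 1 library left out. The order by level kept 2 of 7 places per kb of region. No paired analysis was possible because the group means carry no replicate number. Libraries at their minimum could not be left out one by one. Low values rest on few reads, and how reads in repeats were placed is not known.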
